A study of Mus musculus with 20 samples.

Results

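Gene expression in epididymal fat was compared between 14 and 4 days of high-fat feeding. All mice were males of C57BL6/J, an inbred strain that gains weight readily on such diets. The libraries were chosen by their labelled day alone: the 4 of day 14 and the 4 of day 4, 8 of the 20 libraries of the series. Both groups ate the same high-fat diet, and the labels name no allele, drug or other agent in either. A further 4 libraries from mice on normal chow (day 0) give the level before the diet switch, and 4 from day 6 fill the interval between. Chow was sampled at day 0 only, so time in the study and time on the diet cannot be told apart. The series calls the libraries biological replicates without tying each to an animal, and p-values measure the spread between these libraries. The comparison addresses which changes present on day 4 had receded by day 14 and which were still present.

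The epididymal depot is visceral fat, made of large lipid-filled adipocytes among precursor cells, blood vessels, immune cells and a mesothelial lining. When dietary fat arrives in excess, adipocytes enlarge and stromal and precursor cells can enter the cell cycle, while the collagen scaffold around the adipocytes is rebuilt. Adipocytes also adjust their own synthesis of fatty acids and cholesterol, through transcription factors of the SREBP and ChREBP families. Leptin, adiponectin and the insulin-responsive glucose transporter are among the best known products of this tissue.

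RNA was counted per gene, and levels are given as CPM, the usual depth-scaled count, after TMM adjustment. Totals ran from 4578703 to 16274913 counts on day 4 and from 6724707 to 24581101 on day 14. Adipocyte markers were abundant throughout: the 12 listed summed to between 25604 and 38556 CPM on day 4 and between 37189 and 43615 CPM on day 14. Of 9 epididymis markers 1 passed the filter on low counts, Cuzd1, which read 0 in every day 4 library and 1.55 CPM in day 14 replicate 4. In chow replicate 4 it reached 80.1 CPM. The count of genes called on day 14 against chow and some single genes are also given without that library. List counts and medians against chow include it. In bulk tissue, fewer cells of a type and less RNA per cell cannot be told apart.

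Day 4 replicate 1 stood apart from the other day 4 libraries. Averaged over 50 genes of mitosis and cytokinesis, its log2 level above the chow mean was 0.66, against 3.33 to 3.58 in the other 3. Day 14 libraries lay at 0.97, 0.20, 0.78 and 0.26 on the same scale, so this 1 library of day 4 fell inside the day 14 range. The main counts below are therefore also given without it. Day 14 libraries differed among themselves as well. Replicates 1 and 2 averaged 0.57 and 0.60 over the matrix glycoprotein genes, where replicates 3 and 4 averaged -0.18 and -0.14. Those first 2 libraries also had the larger totals, at least 15685851 counts against at most 9223253, and the part of depth in this was not tested.

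Of 15254 genes tested, 1428 (9.36%) differed between day 14 and day 4 at an adjusted p under 0.05 in edgeR's quasi-likelihood test, with p-values adjusted by the Benjamini-Hochberg method over all genes. Of these, 699 (4.58%) were higher on day 14 and 729 (4.78%) lower. The median log2 change over all tested genes was 0.002. The adjusted p of every called gene lay between 0.0268 and the threshold. Leaving out any of day 4 replicates 2, 3 or 4 or day 14 replicates 1 or 2 ended all calls, with the smallest adjusted p then at 0.0571 to 0.103 and 2907 to 3638 genes at an unadjusted p under 0.05. Without day 4 replicate 1 the count was 2641, without day 14 replicate 3 it was 1646, and without day 14 replicate 4 it was 533. All 126 called genes that met the naming rule kept their sign in all 8 of these fits, and each lost its call in at least 5 of them.

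**Figure D1:**
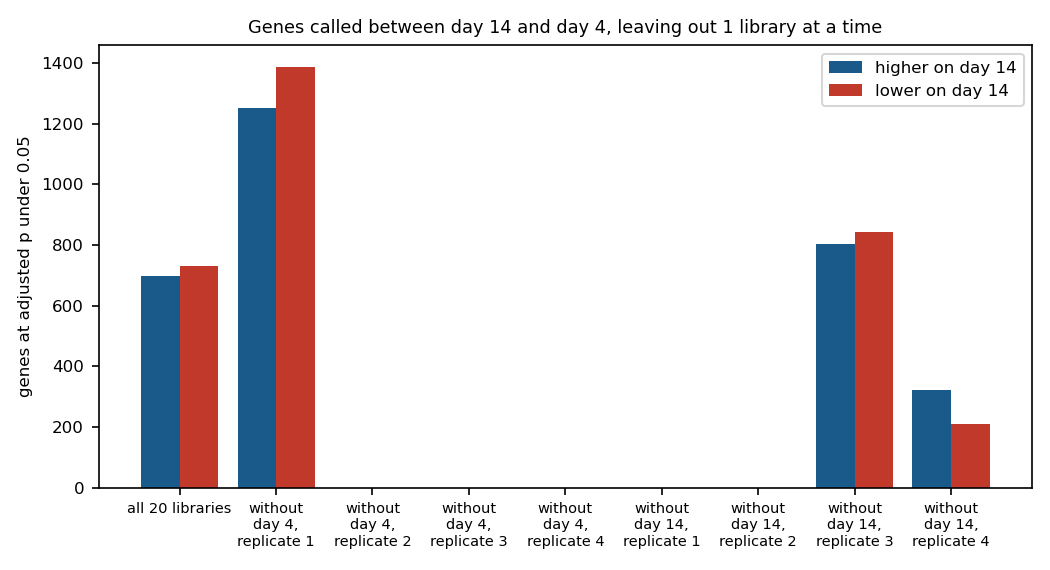
Number of genes higher (blue) and lower (red) on day 14 than on day 4 at an edgeR adjusted p under 0.05 (y axis, genes), in the fit of all 20 libraries and in fits that leave out 1 library (x axis). The counts were 699 and 729 with all libraries, 1253 and 1388 without day 4 replicate 1, and 0 in 5 of the 8 reduced fits.

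Against chow the same fit called 5381 genes on day 4 (35.3%), 2741 higher (18%) and 2640 lower (17.3%), and 180 genes on day 14 (1.18%), 134 higher (0.878%) and 46 lower (0.302%). The day 14 count against chow depended on single libraries: leaving out 1 gave 45 to 482 genes, the fewest without day 14 replicate 3 and the most without chow replicate 1, and 55 without chow replicate 4. These comparisons share libraries with each other and with day 14 against day 4, so their values are set side by side and no agreement between them is counted. Scaling by library size alone put the median log2 change of all genes against chow at -0.14 on day 4 and -0.10 on day 14, where TMM gave -0.02 and -0.007, and split the calls against chow 1750 to 3681 and 65 to 78. On day 6 no gene was called against day 4, with 2492 at an unadjusted p under 0.05, and none between day 14 and day 6, with 508.

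Among the gene lists, those of the cell cycle had the most members lower on day 14. Over all tested genes 4.58% were called higher and 4.78% lower, the shares beside which each list count stands. At an unadjusted p under 0.05 edgeR had 4316 of all 15254 genes between the days and 2749 on day 14 against chow. List counts at that level stand beside these. DESeq2 called 1979 genes between the days, 968 higher and 1011 lower, and its list counts between the days stand beside those. All 50 tested genes of mitosis and cytokinesis were called between the days, 49 lower and 1 higher on day 14, with a median log2 change of -2.67. In the DNA replication and S phase list 33 of 42 fell, none rose, and the median was -1.03. On day 4 against chow the mitosis list had 49 genes higher and 1 lower, with a median of 3.28, and S phase had 33 higher at a median of 1.04. On day 14 against chow neither list had a called gene, and the medians were 0.59 for mitosis and -0.01 for S phase, the latter changing sign with the settings. At an unadjusted p under 0.05 edgeR then had 0 and 2 genes, and DESeq2 called none. Without day 4 replicate 1 the counts between day 14 and day 4 were again 49 lower and 1 higher for mitosis, and 40 of 42 lower for S phase. DESeq2 gave 49 and 1 and 36, whereas limma-voom called none of the mitosis genes and 4 of S phase.

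Mki67, which encodes the Ki-67 protein of dividing nuclei, read 21.4, 208, 175 and 175 CPM in day 4 replicates 1 to 4 and 28.7, 11.1, 21.7 and 13.2 CPM on day 14. Day 4 replicates 2 to 4 stood far above every day 14 library, and replicate 1 lay inside the day 14 range. The log2 change was -2.92 (SE 0.66), or 7.58-fold lower. Chow libraries had 10.3, 4.65, 15.9 and 8.32 CPM, and the day 14 change against chow was 0.9 (SE 0.65), which did not pass the test (edgeR adjusted p = 0.5).

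Ccna2, cyclin A, gave 4.83, 53.4, 41.9 and 38.8 CPM on day 4 and 5.54, 2.63, 4.104 and 3.11 on day 14, with a log2 change of -3.12 (SE 0.69). Top2a, the DNA topoisomerase of dividing cells, gave 11.1, 127, 88.1 and 97.9 CPM on day 4 and 13.6, 5.82, 12.3 and 6.69 on day 14, with a change of -3.03 (SE 0.68). In both genes replicate 1 of day 4 overlapped day 14 and the other 3 did not. Foxm1, the transcription factor that drives late cell cycle genes, changed by -2.86, the Aurora kinase gene Aurkb by -2.6 and Incenp, its partner in the chromosomal passenger complex, by -1.64. The mitotic kinase genes Pbk and Melk changed by -3.27 and -2.89. Both were among the 12 largest falls, which were drawn only from called genes whose 4 and 4 libraries did not overlap.

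Few mitosis genes separated the libraries completely. Their day 4 and day 14 libraries did not overlap, with day 14 lower, in 8 of 50 genes, beside 6.36% of all tested genes (7.91% had day 14 wholly higher, 14.3% in either direction). In S phase they did so in 12 of 42. Pcna, the sliding clamp of DNA polymerase, gave 46.2, 71.2, 66.8 and 69.4 CPM on day 4 and 38.2, 35.6, 40.8 and 37.6 on day 14, with 38.1, 40.3, 37.3 and 37.2 on chow. All 4 day 14 libraries were below all 4 of day 4 and within the chow range or close to it, and the log2 change was -0.73 (SE 0.13). The helicase subunit genes Mcm2 and Mcm5 changed by -1.55 (SE 0.30) and -1.9 (SE 0.41), the primase gene Prim1 by -1.47 (SE 0.29) and the cyclin E gene Ccne1 by -1.48 (SE 0.29). Uhrf1, which maintains DNA methylation behind the replication fork, gave 6.17, 43.5, 33.5 and 39.03 CPM on day 4 and 6.04, 3.76, 4.902 and 4.51 on day 14 (-2.64).

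The 1 mitosis gene that rose was Pttg1, securin, named after its values were seen, from a mean of 18.8 CPM on day 4 to 24.4 on day 14, a log2 change of 0.38 (SE 0.11). Among 17 genes that restrain the cell cycle, 3 rose and 3 fell. The inhibitor genes Cdkn1b (p27) and Cdkn1c (p57) rose by 0.46 and 0.84, as did the antiproliferative gene Btg1 by 0.68. For Cdkn1b the values were 32.2, 26.3, 32.4 and 22.6 CPM on day 4 and 39.96, 43.9, 34.7 and 36.8 on day 14, all 4 higher than day 4 and all 4 below the chow values of 47.4, 51.03, 51.9 and 47.1. The 3 that fell were Cdkn2d (p19), Gadd45b and Ccng1, with log2 changes of -0.70, -1.21 and -0.46, the last 2 named after their values were seen. Over the 17 genes the median was -0.258, with 10 changes negative and 7 positive.

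Promoters of the mitosis genes share letters that these counts did not use. The windows are from RefSeq on the GRCm38.p6 build, 250 bases before to 50 after each start site, and 41 of 50 mitosis genes matched, with 43 windows. The sequence TTTGAA, the core of the cell cycle homology region through which late cell cycle genes are repressed in resting cells, was found on either strand in 32 of 43 windows (74.4%). It occurred in 12.4% of the windows of tested genes and in 17.9% of all windows in the table. Within 50 bases of the start site it was in 30 of 43 (69.8%), against 3.2% over tested genes. CCAAT, the letters bound by NF-Y, was in 72.1% of mitosis windows and 37.1% over tested genes. In S phase windows TTTGAA was in 4 of 40 (10%), while the E2F forms TTTCCCGC, TTTGGCGC, TTTCGCGC and TTTGCCGC were in 14 of 40 (35%), against 3.65% over tested genes. Each motif was searched on both strands and counted without regard to overlap with another, and a match is a description of the letters, not of binding.

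The 250 bases before the start sites of Mki67 (chr7:135716380-135716629, minus strand) and Top2a (chr11:99024190-99024439, minus strand) are shown because both genes fell and each holds the motif more than once. Capitals mark TTTGAA or its reverse complement, at -116 and -98 in Mki67 and at -179 and -23 in Top2a, counted from the start site.
Mki67: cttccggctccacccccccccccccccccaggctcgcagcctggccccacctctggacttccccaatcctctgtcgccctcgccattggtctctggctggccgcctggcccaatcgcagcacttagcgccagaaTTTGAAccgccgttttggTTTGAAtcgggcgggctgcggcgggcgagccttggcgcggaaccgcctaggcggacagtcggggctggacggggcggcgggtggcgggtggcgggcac
Top2a: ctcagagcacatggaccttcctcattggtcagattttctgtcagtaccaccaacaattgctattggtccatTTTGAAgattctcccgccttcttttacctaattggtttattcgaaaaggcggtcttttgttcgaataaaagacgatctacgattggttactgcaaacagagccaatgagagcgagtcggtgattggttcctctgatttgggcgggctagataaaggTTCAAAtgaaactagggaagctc

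**Figure D2:**
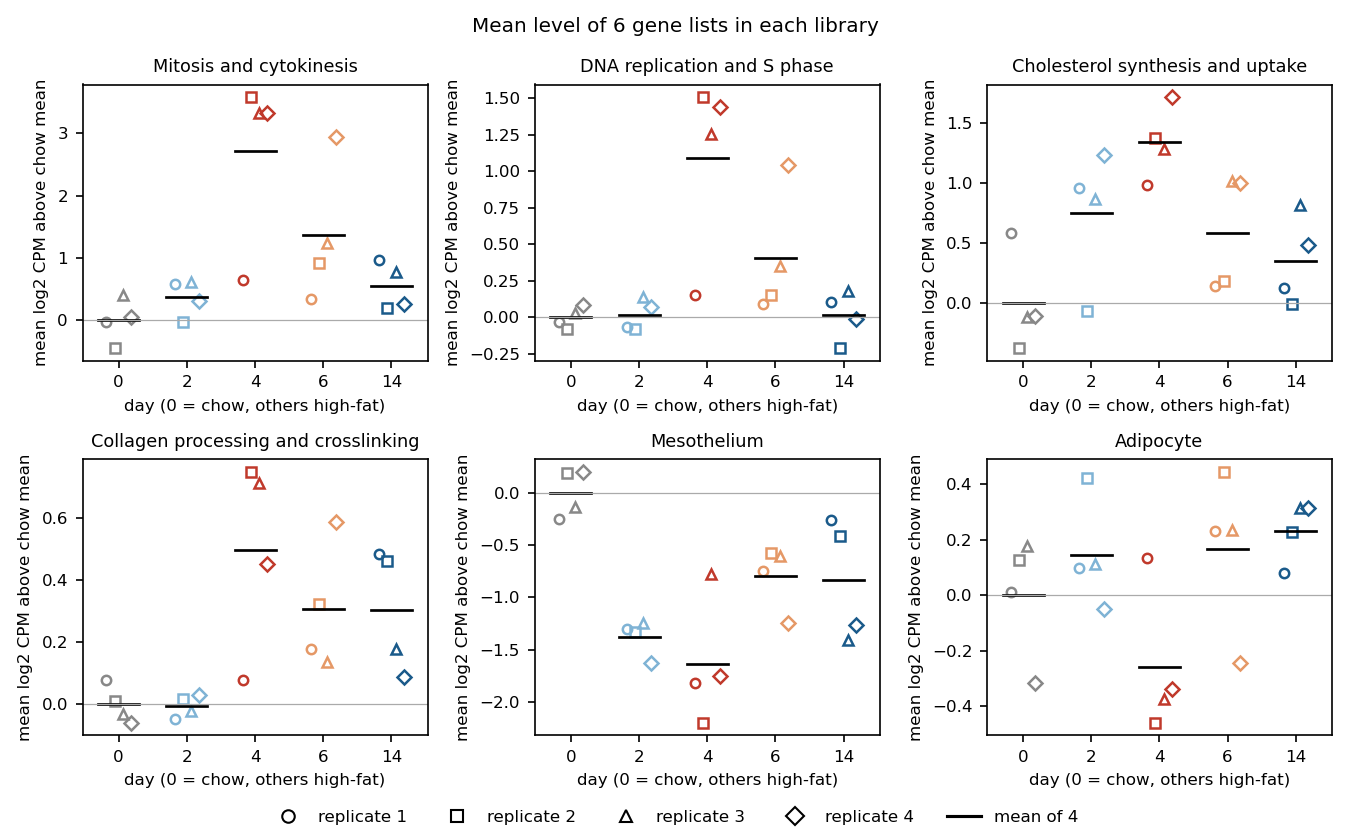
Mean log2 CPM of 6 gene lists above the chow mean (y axis, log2) in each of the 20 libraries by day (x axis), with a symbol for each replicate number and a black line at the mean of 4. In mitosis, day 4 replicates 2 to 4 lie between 3.33 and 3.58, while replicate 1 at 0.66 lies inside the day 14 range of 0.20 to 0.97.

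Genes of cholesterol synthesis and uptake were also lower. Of 25 tested genes 9 fell and none rose, all 25 log2 changes were negative, and the median was -1.01. Day 4 against chow had 22 of 25 higher at a median of 1.34. Day 14 against chow had no edgeR call at a median of 0.19, and DESeq2 called 1 gene. At an unadjusted p under 0.05 edgeR then had 4 genes, a share near that over all tested genes (2749 of 15254). Without day 4 replicate 1 the fall comprised 16 genes. DESeq2 also called 16, limma-voom 4, and the fits with no filter or without day 14 replicate 4 called none, as did the 5 reduced fits that ended all calls. In 17 of the 25 the day 14 libraries lay wholly below those of day 4, beside 6.36% of all tested genes.

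Insig1, which retains the SREBP escort protein in the endoplasmic reticulum when sterols are plentiful, gave 674, 779, 806 and 1285 CPM on day 4 and 175, 177, 409 and 238 on day 14. Every day 14 library was below every day 4 library, and the log2 change was -1.83 (SE 0.48). Chow libraries read 208, 85.8, 120.1 and 77.2, with replicate 1 inside the day 14 range. The pathway enzymes Fdps (-1.53), Nsdhl (-1.44), Dhcr7 (-1.37), Cyp51 (-1.5), Mvd (-1.37), Tm7sf2 (-1.24) and Lss (-1.2) were also lower, in log2 units. Of these, Cyp51, Mvd, Tm7sf2 and Lss were named after their values were seen.

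For Fdps, farnesyl diphosphate synthase, the values were 67.1, 119, 102 and 154 CPM on day 4 and 28.2, 27.3, 56.5 and 42.8 on day 14. No day 14 library reached the lowest of day 4, and replicates 3 and 4 lay within the chow range of 28.7 to 72.2 CPM, with replicates 1 and 2 just under it. Sqle, squalene epoxidase, fell short of the threshold at -1.21 (SE 0.40, edgeR adjusted p = 0.0621). It passed without day 4 replicate 1, at an edgeR adjusted p = 0.0411.

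Hmgcs1, HMG-CoA synthase, gave 716, 618, 678 and 822 CPM on day 4 and 360.1, 238, 632 and 494 on day 14, with replicate 3 inside the day 4 range, and its change of -0.72 (SE 0.33) did not pass (edgeR adjusted p = 0.157).

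In cholesterol gene promoters CCAAT stood in 16 of 20 windows (80%), and the sterol regulatory letters TCACNCCAC in 1 of 20 (5%), against 1.16% over tested genes. That window is from Hmgcs1 (RefSeq, chr13:119690101-119690350, plus strand, the 250 bases before the start site). It is shown because it holds the match, at -137 and in capitals.
Hmgcs1: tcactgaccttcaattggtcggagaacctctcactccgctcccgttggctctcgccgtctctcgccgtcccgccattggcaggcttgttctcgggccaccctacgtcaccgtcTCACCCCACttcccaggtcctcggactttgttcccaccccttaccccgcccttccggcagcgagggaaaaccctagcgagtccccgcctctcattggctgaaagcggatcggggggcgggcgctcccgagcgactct

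Part of the fatty acid synthesis pathway was lower too. Of 23 lipogenic genes 5 fell between day 4 and day 14 and none rose, with a median of -0.39. The 5 were Acss2, which activates acetate (-1.87), the desaturase gene Scd2 (-1.8), malic enzyme Me1 (-1.38), the elongase gene Elovl6 (-1.36) and the citrate carrier gene Slc25a1 (-1.04). Scd2 was named after its values were seen. The fall was uneven over the day 14 libraries, whose list means were -0.71, -0.59, 0.02 and -0.12 relative to chow, beside 0.09 to 0.32 on day 4. Without day 14 replicate 3, 10 lipogenic genes were called lower, and without replicate 4 only 1. Against chow Acss2, Me1 and Slc25a1 were 2.241-, 1.595- and 1.531-fold higher on day 4. On day 14 they were 1.64-, 1.63- and 1.34-fold lower than chow, without a call.

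Elovl6 gave 99.8, 100.4, 142 and 111 CPM on day 4, 33.5, 30.7, 71.7 and 41.5 on day 14 and 204, 93.7, 103 and 113 on chow. Day 14 lay below both other groups in every library, with a change of -1.36 (SE 0.37) against day 4 and -1.55 (SE 0.37) against chow. Its day 4 difference from chow did not pass (-0.19, edgeR adjusted p = 0.714). The call against chow was lost in all 8 fits that left out a library. Against chow 3 lipogenic genes were lower on day 14: Elovl6, Acly, the ATP citrate lyase gene (-1.9), and Tkt, transketolase (-1.35), the last 2 named after their values were seen.

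Fasn, fatty acid synthase, gave 10735, 7499, 10182 and 11321 CPM on day 4 and 2341, 2097, 7457 and 3421 on day 14. All day 14 libraries were below those of day 4, replicate 3 only just, and the change of -1.38 (SE 0.47) did not pass (edgeR adjusted p = 0.0719). Against chow Fasn was 1.05-fold higher on day 4 and 2.47-fold lower on day 14, the latter without a call. Scd1, the main desaturase gene of fat, gave 45968, 60995, 50980.4 and 63640.5 CPM on day 4 and 38598, 44927, 53762 and 73388 on day 14, with overlapping libraries and a change of -0.07 (SE 0.26). The regulators Srebf1 (-0.09, SE 0.17) and Mlxipl, which encodes ChREBP (0.2, SE 0.22), were not called. Among fatty acid uptake and triglyceride genes, the lipid chaperone Fabp5 fell from 479.5 ± 143 CPM (mean ± SD, n = 4) to 169 ± 49.6, and the acyl-CoA synthetase gene Acsl3 from 32.3 ± 3.86 to 15.4 ± 1.65.

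Of 12 adipocyte markers 3 rose and none fell, with a median of 0.35, and without day 4 replicate 1 there were 6. Adipoq, adiponectin, gave 2947, 1253, 1776 and 1161 CPM on day 4, 3768, 4419, 3338 and 3488 on day 14 and 2746, 4128, 4142 and 2509 on chow. Every day 14 library was above every day 4 library and the change was 1.07 (SE 0.31), while against chow it was 0.15. The summed CPM of the 12 markers overlapped between the days, as given above.

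Lipolysis genes rose in 3 of 21: Pnpla2, which encodes the lipase ATGL, the lipid droplet coat gene Plin4 and the beta-3 adrenergic receptor gene Adrb3. Pnpla2 went from 1528, 1209.5, 928 and 989.6 CPM on day 4 to 2102, 2830.2, 2222 and 2600.4 on day 14, without overlap, a change of 1.07 (SE 0.28). Adrb3 went from 764, 395, 405 and 319 to 919, 1052, 915 and 1173 CPM, a change of 1.11 (SE 0.29), and its chow values of 1149, 1129.9, 1417 and 881 CPM overlapped day 14. Pck1, the enzyme that supplies glycerol phosphate for fatty acid re-esterification, gave 970.1, 451, 683 and 494 CPM on day 4 and 2026, 2335, 2004 and 1925 on day 14. Its day 14 libraries were above all those of day 4 and inside the chow range of 1635 to 3935 CPM, and the change was 1.67 (SE 0.35). Aqp7, the glycerol channel of adipocytes, rose by 0.5.

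Among 23 insulin signalling genes 3 rose and none fell. Irs2, an insulin receptor substrate, went from 26.6 ± 7.06 to 71.6 ± 14.8 CPM, and Foxo1, a transcription factor restrained by insulin, from 79.2 ± 13.6 to 124 ± 16.8. The glucose transporter gene Slc2a4 (GLUT4) was not called (0.06, SE 0.17). In glycolysis and glucose transport 4 of 25 fell and 1 rose. Tpi1, triosephosphate isomerase, gave 688, 864, 729 and 932 CPM on day 4 and 343, 319.7, 616 and 504 on day 14 (-0.85), and the neuronal-type glucose transporter gene Slc2a3 rose by 1.39. Gapdh and Pkm fell by 0.73 and 0.67 on the log2 scale.

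**Figure D3:**
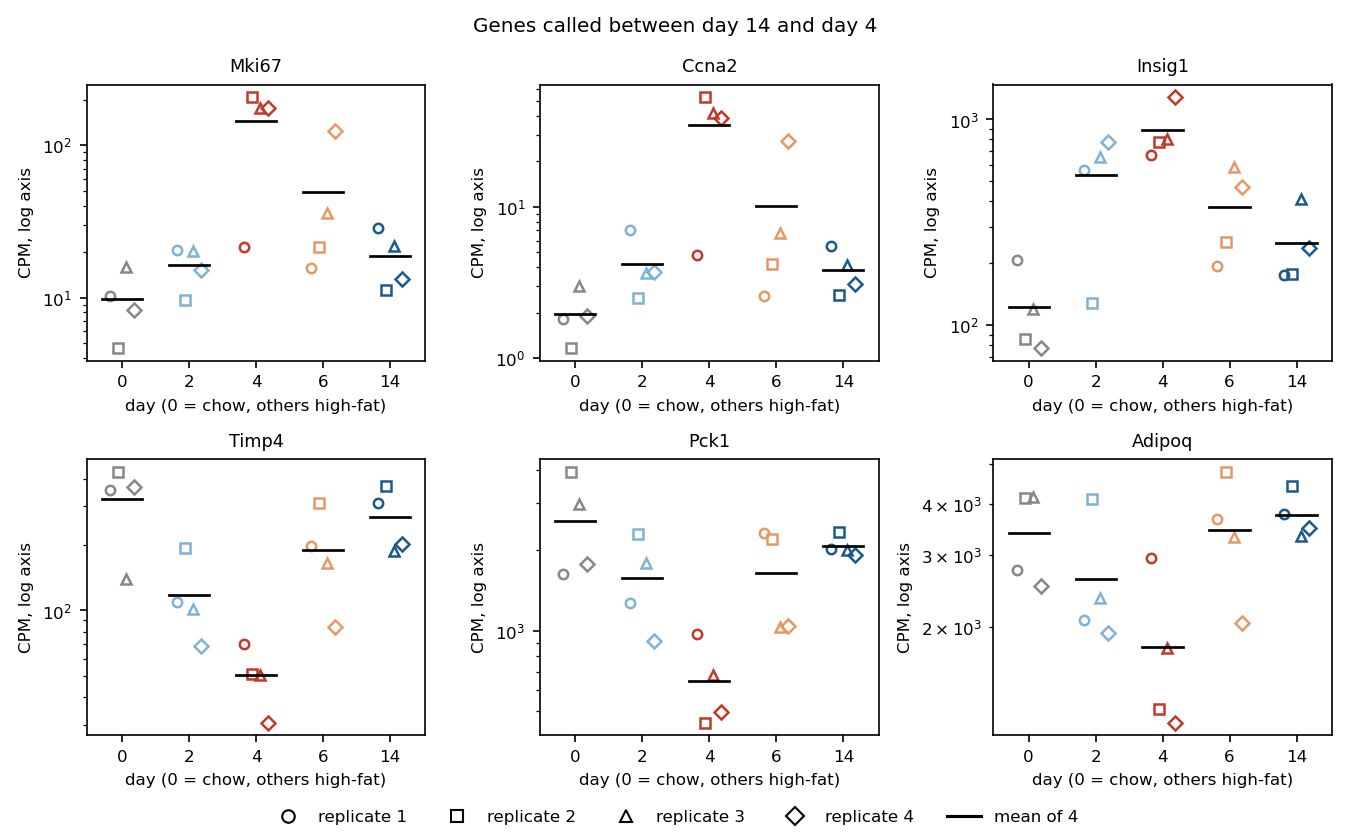
CPM on a log axis (y) of 6 genes called between day 14 and day 4, in each library by day (x), with a symbol for each replicate number and a black line at the mean of 4. Mki67, Ccna2 and Insig1 were lower on day 14 than on day 4, and Timp4, Pck1 and Adipoq were higher, with no overlap of the 4 and 4 libraries except for replicate 1 of day 4 in Mki67 and Ccna2.

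Of 26 collagen genes 3 fell between day 4 and day 14 (Col6a3, Col4a1 and Col4a2) at a list median of -0.25, and none of 23 collagen processing genes was called, at -0.17. Against chow the collagens had 14 higher and 2 lower on day 4 (median 0.70) and no call on day 14 (0.47), and processing genes had 15 higher (0.55) and 1 higher (0.29). That 1 was the crosslinking enzyme gene Loxl1, at 0.85 (SE 0.13) on day 14 against chow, named after its values were seen. Without day 4 replicate 1, 8 collagens and 5 processing genes were called lower on day 14 than on day 4. DESeq2 called 6 and 4 in the full set of libraries, beside 1979 calls over all 15254 genes, 1011 of them lower. At an unadjusted p under 0.05 edgeR had 5 of 23 processing genes between the days, a smaller share than over all genes (4316 of 15254). On day 14 against chow it had 14 of 26 collagens, a larger share than over all genes (2749 of 15254). In that chow comparison DESeq2 called 6 collagens.

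Col6a3, a chain of the microfibrillar collagen around adipocytes, gave 258, 826, 724 and 679 CPM on day 4 and 313, 267, 254 and 254 on day 14. Day 4 replicate 1 lay inside the day 14 range and the other 3 well above it, and the change was -1.19 (SE 0.31). Against chow values of 161, 158, 185 and 152 CPM, all 4 day 14 libraries were higher, but the change of 0.73 (SE 0.31) did not pass (edgeR adjusted p = 0.218). The basement membrane chains Col4a1 and Col4a2 changed by -0.74 and -0.8 against day 4.

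Fibrillar chains were not called. Col1a1 gave 264, 901, 624 and 399 CPM on day 4 and 510.1, 479, 246 and 350.0 on day 14 (-0.46, SE 0.31), and Col3a1 changed by -0.27 (SE 0.21). Lox, lysyl oxidase, changed by -0.47 (SE 0.23, edgeR adjusted p = 0.182) and passed only without day 4 replicate 1, at 0.0281. Sparc, a collagen-binding matricellular protein, gave 3454, 6234, 5947 and 5368 CPM on day 4, 5456, 5185, 4817 and 4095 on day 14 and 2699, 2315, 2762 and 2267 on chow. All 8 high-fat values exceeded all chow values, the difference between the days was -0.1 (SE 0.20), and day 14 against chow was 0.96 (SE 0.20). That last call was lost in 4 of the 8 fits without 1 library, chow replicate 4 among them (edgeR adjusted p = 0.0899).

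Some matrix genes that had been below chow on day 4 were higher again on day 14. Of 32 matrix glycoprotein genes 3 rose, Fmod, Fbln1 and Ecm1, and 1 fell, Nid2. Fmod, the collagen-binding proteoglycan fibromodulin, gave 68.7, 67.5, 78.5 and 76.8 CPM on chow, 23.5, 15.8, 27.1 and 23.9 on day 4 and 70.6, 44.95, 34.7 and 34.05 on day 14, a change of 1.04 (SE 0.24). Day 14 replicate 1 was back in the chow range and the other 3 were below it. Nid2, which links laminin to type IV collagen, fell from 442 ± 124 to 196 ± 49.02 CPM.

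In the protease and inhibitor list of 22 genes, 1 rose and 1 fell. Timp4, a metalloproteinase inhibitor prominent in fat, gave 355, 431, 139 and 366 CPM on chow, 70.1, 51.1, 50.8 and 30.6 on day 4 and 311, 369, 187 and 202 on day 14. Every day 14 library exceeded every day 4 library, the log2 change was 2.4 (SE 0.42), or 5.28-fold, and the day 14 and chow libraries overlapped. Adamts9, a proteoglycan-cleaving protease, changed by -0.98 (SE 0.22), with no overlap.

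Mesothelial markers, which mark the serosal lining of the fat pad, stood on day 14 between day 4 and chow in their median. Of 18 tested, 4 rose and none fell between day 4 and day 14, at a median of 0.98, after 16 lower and 1 higher on day 4 against chow (-1.73). On day 14 against chow edgeR called none at a median of -0.73, with 12 at an unadjusted p under 0.05 and 4 called lower by DESeq2. The day 14 libraries split: list means were -0.26 and -0.41 in replicates 1 and 2 and -1.40 and -1.26 in replicates 3 and 4, beside -1.82, -2.20, -0.78 and -1.75 on day 4. Without day 14 replicate 3 there were 11 rises. Upk3b, uroplakin 3B, gave 41.6, 22.7, 73.5 and 38.7 CPM on day 4, 124, 109, 66.6 and 55.8 on day 14 and 139, 164, 167 and 108 on chow, with an overlap at day 4 replicate 3. Rspo1 (1.05), Wt1 (1.03) and Igfbp6 (1.24) also rose. Msln, mesothelin, gave 10.05, 14.7, 48.8 and 20.7 CPM on day 4 and 69.8, 63.8, 20.9 and 28.1 on day 14, with overlap, and was not called (1.04, SE 0.40, edgeR adjusted p = 0.101). Summed CPM over 19 mesothelial genes ran from 651 to 1056 on day 4, from 782 to 1338 on day 14 and from 1067 to 1221 on chow. Igfbp5 held much of these sums, with means of 598 CPM on day 4, 532 on day 14 and 377 on chow. It was the 1 gene higher on day 4 against chow (0.67), opposite to the 16 lower, so the sums do not follow the other markers.

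Endothelial markers fell in 3 of 12, with a median of -0.42: the VEGF receptor gene Kdr (-0.54), Egfl7 (-0.64) and Emcn (-0.47). Kdr gave 265, 245, 300.3 and 291 CPM on day 4 and 213, 154, 218 and 171 on day 14, with no overlap and with the day 14 values in or near the chow range of 147 to 207 CPM. On day 4 against chow 6 of the 12 were higher. Limma-voom called no endothelial gene. Ramp2, the adrenomedullin receptor partner, gave 78.1, 90.1, 125 and 88.2 CPM on day 4, 90.3, 65.4, 78.3 and 59.5 on day 14 and 40.1, 40.7, 44.3 and 35.9 on chow. It was not called between the days (-0.37, SE 0.16, edgeR adjusted p = 0.135) and was called against chow on day 14 (0.87, SE 0.16) in all 8 fits that left out a library. Among angiogenic factors, Fgf2 rose by 1.19 and its receptor Fgfr1 by 0.52.

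Of 15 macrophage markers 1 fell, near the 4.78% of all tested genes that were lower. It was Trem2, a lipid-sensing receptor of macrophages. Trem2 gave 15.01, 13.03, 10.4 and 8.37 CPM on day 4 and 6.35, 6.198, 3.53 and 5.13 on day 14, without overlap, at -1.12 (SE 0.20). Chow read 10.5, 9.30, 7.39 and 8.82 CPM, wholly above day 14. Neither change of Trem2 against chow was called, at 0.39 on day 4 (edgeR adjusted p = 0.126) and -0.73 on day 14 (edgeR adjusted p = 0.0662). The macrophage genes Adgre1 (-0.1, SE 0.20), Cd68 (-0.5, SE 0.20) and Itgax (-0.42, SE 0.32) were not called. Among 26 chemokines and cytokines 1 fell, a share also near 4.78%. This was the monocyte attractant Ccl8, from 5.53, 21.4, 18.4 and 11.4 CPM on day 4 to 2.38, 2.25, 2.51 and 3.42 on day 14 (-2.41, SE 0.40). Against chow Ccl8 was 2.555-fold higher on day 4 and 2.087-fold lower on day 14. Ccl2, the main monocyte chemokine, gave 7.503, 41.6, 24.9 and 28.9 CPM on day 4, 20.5, 10.9, 6.04 and 19.9 on day 14 and 3.02, 6.51, 2.18 and 2.43 on chow, with overlap between the high-fat days and no call (-0.81, SE 0.61, edgeR adjusted p = 0.399). Of 23 interferon response genes edgeR and DESeq2 called none, with 2 at an unadjusted p under 0.05.

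T and NK cell markers had 1 rise in 12, Cd3e, where 4.58% of all tested genes were higher. Cd3e had only 12 reads over the 4 day 4 libraries and 58 over the 4 of day 14. B cell markers had no call in 7 by edgeR, with 1 at an unadjusted p under 0.05 and 1 called by DESeq2. The medians of these 2 lists, 0.42 and 0.73, both became negative without day 14 replicate 1 (-0.15 and -0.32). Of 8 neutrophil and mast cell genes 1 fell, S100a8 (-2.08), and 6 changes were positive at a list median of 0.21. Among them S100a9, named after its values were seen, gave 2.4 (SE 1.01) and was not called (edgeR adjusted p = 0.132). Of 12 adipocyte precursor markers, Pi16 (1.53) and Clec3b (0.98) rose, and the list was again higher in day 14 replicates 1 and 2 (0.37 and 0.56) than in 3 and 4 (-0.28 and -0.29).

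In the antioxidant and metallothionein list 5 of 24 rose and 1 fell. The metallothionein genes Mt1 and Mt2 gave log2 changes of 1.18 (SE 0.28) and 2.03 (SE 0.48), with Mt2 at 15.2, 19.96, 13.5 and 12.2 CPM on day 4 and 50.9, 114, 23.6 and 54.9 on day 14, no overlap, and 43.04, 137, 40.9 and 86.3 on chow. The peroxidase gene Gpx1 rose by 1.29 and the glutathione transferase gene Gstm1 by 0.91. Immediate early genes rose in 3 of 23 at a median of 0.56, namely Jun (0.97), Jund (0.7) and Zfp36 (0.76), and their day 14 list means of 0.89, 0.77, -0.04 and 0.42 overlapped the day 4 range of -0.20 to 0.34. The clock genes Per1 and Per2 rose by 1.19 and 1.32, 2 of 18 in that list, and limma-voom called neither.

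Autophagy genes rose in 4 of 23 and none fell. Map1lc3b and Map1lc3a encode LC3, the protein that coats autophagosomes, and Gabarapl1 a close relative, while Bnip3 is a mitophagy receptor. Gabarapl1 gave 129, 98.6, 103 and 86.2 CPM on day 4, 175, 213, 152 and 169 on day 14 and 179, 238, 227 and 173 on chow. It rose by 0.77 (SE 0.19) from a day 4 level below chow, as did Map1lc3b (0.61, SE 0.18) and Bnip3 (0.89, SE 0.24). Map1lc3a was unlike them in direction against chow. It gave 122, 124, 121 and 96.8 CPM on chow, 162, 138, 143 and 149.7 on day 4 and 188, 204, 199.8 and 175 on day 14, with the 3 groups separate, and changes of 0.36 (SE 0.11) to day 4 and a further 0.37 (SE 0.11) to day 14. Its call on day 14 against chow (0.73, SE 0.11) held in all 8 fits that left out a library. The list median was -0.02, beside 0.002 over all genes.

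Of 76 ribosomal protein genes 3 were lower on day 14 than on day 4, where 4.78% of all tested genes were. Against chow 23 of the 76 were called lower on day 4, where 17.3% of all genes were, and 1 higher. On day 14 against chow 2 were called lower, where 0.302% were, and 75 of 76 changes were negative at a median of -0.233. List means were -0.341 to -0.133 on day 14 and -0.031 to 0.04 on chow, without overlap. Ribosome biogenesis had 5 of 32 lower at a median of -0.20 between the days, after 18 higher on day 4 against chow. Nop2, an rRNA methyltransferase, gave 34.8, 30.05, 32.6 and 36.8 CPM on day 4 and 23.5, 26.9, 24.3 and 26.4 on day 14, between day 4 and the chow values of 21.2, 21.7, 20.5 and 18.7. Of 54 nuclear genes of the respiratory chain 3 fell, Cox7a1, Ndufa8 and Ndufs8, a share near those 4.78%, and 47 of the 54 changes were negative at a median of -0.16. Cox7a1, a subunit of cytochrome oxidase, gave 5.21, 6.72, 7.55 and 7.52 CPM on day 4 and 2.46, 2.504, 3.76 and 2.799 on day 14, with no overlap, at -1.23 (SE 0.34). Of 30 chaperone and unfolded protein response genes 1 fell, Dnajb11 (-0.34). By edgeR no mitochondrially encoded gene of 15, smooth muscle gene of 10 or heat shock gene of 12 was called, with 0, 2 and 3 at an unadjusted p under 0.05. DESeq2 called 0, 0 and 1 of them. At the unadjusted level the share over all tested genes (4316 of 15254) was larger than in each of these lists.

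The 12 largest rises among called genes without overlap included the following. Nnat, neuronatin, gave 551, 85.5, 48.4 and 49.7 CPM on day 4 and 2447, 2375, 1165 and 1285 on day 14 (3.3, SE 0.88), with day 4 replicate 1 far above the other day 4 libraries. Chrdl1, a BMP antagonist, rose by 2.56, the Myc family gene Mycl by 2.87, the sialyltransferase gene St6galnac5 by 2.84 and the pantetheinase gene Vnn1 by 2.76. Prtn3, Sntg2, Zyg11a and Htra4 rose by 2.54 to 3.07. In all of these the chow values overlapped day 14, and none was called between day 14 and chow.

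Gabrr2, a subunit of a GABA receptor, was the exception among the 12. It gave 0.407, 1.05, 0.329 and 1.34 CPM on chow, 0.318, 0.841, 0.666 and 0.654 on day 4 and 6.15, 5.82, 1.94 and 1.399 on day 14, so that it was higher on day 14 than in both other groups, by 2.77 (SE 0.62) and 2.37 (SE 0.55). The call against chow was lost in 6 of the 8 fits without 1 library. Steap4, a metalloreductase of adipocytes, had values of 492, 466, 567 and 440.2 CPM on chow, 402, 503, 362 and 332 on day 4 and 752, 938, 1099.5 and 1160.1 on day 14. All day 14 libraries lay above all others of these groups, at 1.3 (SE 0.27) against day 4, whereas against chow 1.01 (SE 0.27) did not pass (edgeR adjusted p = 0.0653).

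The 12 largest falls were also drawn from called genes without overlap. This left out Ccna2 and Top2a, although both fell more than Dnmt3l, which is among the 12. Genes known from dividing cells made up 5 of the 12: Pbk, Melk, Uhrf1, Depdc1b (-3.05) and the DNA glycosylase gene Neil3 (-3.16). Dio2, the deiodinase that activates thyroid hormone, gave 9.28, 6.72, 6.88 and 13.5 CPM on day 4, 0.923, 0.563, 2.74 and 1.55 on day 14 and 0.6398, 0, 0.405 and 0.5297 on chow. It was high in all 4 day 4 libraries, replicate 1 included, and changed by -2.77 (SE 0.73). Otop1, a proton channel, gave 4.197, 6.72, 5.99 and 9.09 CPM on day 4 and 0.462, 0.563, 1.596 and 1.71 on day 14 (-2.73, SE 0.67). Acoxl changed by -3.05, Hephl1 by -3.13, Plppr4 by -2.92, Myh7b by -3.56 and the DNA methyltransferase cofactor gene Dnmt3l by -2.62.

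Fewer genes were called against chow on day 14 than on day 4. Among 18 markers of adipose expansion the day 14 median against chow was 0.71 and on day 4 it was 0.38. Against chow 4 of them were called higher on day 14, Mest, Trp53inp2, Lep and Ehd2, the last named after its values were seen. From day 4 to day 14, Nnat, Steap4 and Sncg rose, 3 of the 18, and 1 fell, Vldlr (-0.62). Of the 18 changes between those days 9 were negative, at a median of 0.001, so the markers did not move one way.

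Trp53inp2, a nuclear receptor coactivator with a role in autophagy, gave 473, 337, 367 and 422 CPM on chow, 1021, 1700.4, 1910.4 and 1978 on day 4 and 1367, 1022, 1487 and 1396 on day 14. The high-fat groups overlapped each other and were separate from chow. The changes against chow were 2.05 (SE 0.21) on day 4 and 1.72 (SE 0.20) on day 14, and the difference between the days was -0.33 (SE 0.20). Trarg1, a regulator of GLUT4 trafficking in adipocytes, gave 372, 341, 359 and 278 CPM on chow, 707, 623, 607 and 728 on day 4 and 729, 604, 746 and 651 on day 14. The 2 high-fat groups covered nearly the same range, with a difference of 0.03 (SE 0.12) and changes against chow of 0.98 and 1.02.

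Mest, an imprinted hydrolase gene that marks fat pad growth, gave 98.1, 76.1, 67.3 and 101 CPM on chow, 231, 729, 688 and 723 on day 4 and 324, 289.6, 461 and 468 on day 14. Its day 14 level lay above chow in every library (2.17, SE 0.38) and below 3 of the 4 day 4 libraries (-0.62, SE 0.36 against day 4, edgeR adjusted p = 0.268). Lep, leptin, gave 903, 547, 374 and 726 CPM on chow, 2032, 2677, 2795 and 3075 on day 4 and 1939, 1463, 2254 and 1502 on day 14. It was above chow on day 14 by 1.49 (SE 0.32), a call lost in 5 of the 8 fits without 1 library, and its difference from day 4 of -0.56 (SE 0.31) did not pass.

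Other rises against chow that passed on both days by the naming rule were Hr, Krt79, Paqr9, Dusp10, Mageb18 and Trim67. Hr, the hairless corepressor gene, gave 38.97, 31.4, 27.1 and 44.4 CPM on chow, 119, 159, 126 and 173 on day 4 and 303, 141, 146 and 99.3 on day 14, highest in day 14 replicate 1, with changes against chow of 2.02 on day 4 and 2.28 on day 14. Krt79, a keratin gene, gave 3.55, 5.58, 4.43 and 3.24 CPM on chow, 18.8, 15.97, 15.8 and 17.8 on day 4 and 11.5, 11.8, 13.7 and 15.1 on day 14. Its 3 groups did not overlap, with day 14 between the others and not called against day 4 (-0.41, SE 0.22). Paqr9 stood at 2.89 on day 4 and 1.9 on day 14 against chow, and Trim67 at 1.59 and 1.63. Both day 14 calls were lost without chow replicate 4 (edgeR adjusted p = 0.0899 and 0.0594). Of the 25 genes of the naming rule called on day 14 against chow, 8 kept the call in every fit without 1 library: Hr, Krt79, Map1lc3a, Mest, Ramp2, Slc2a5, Trarg1 and Trp53inp2.

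**Figure D4:**
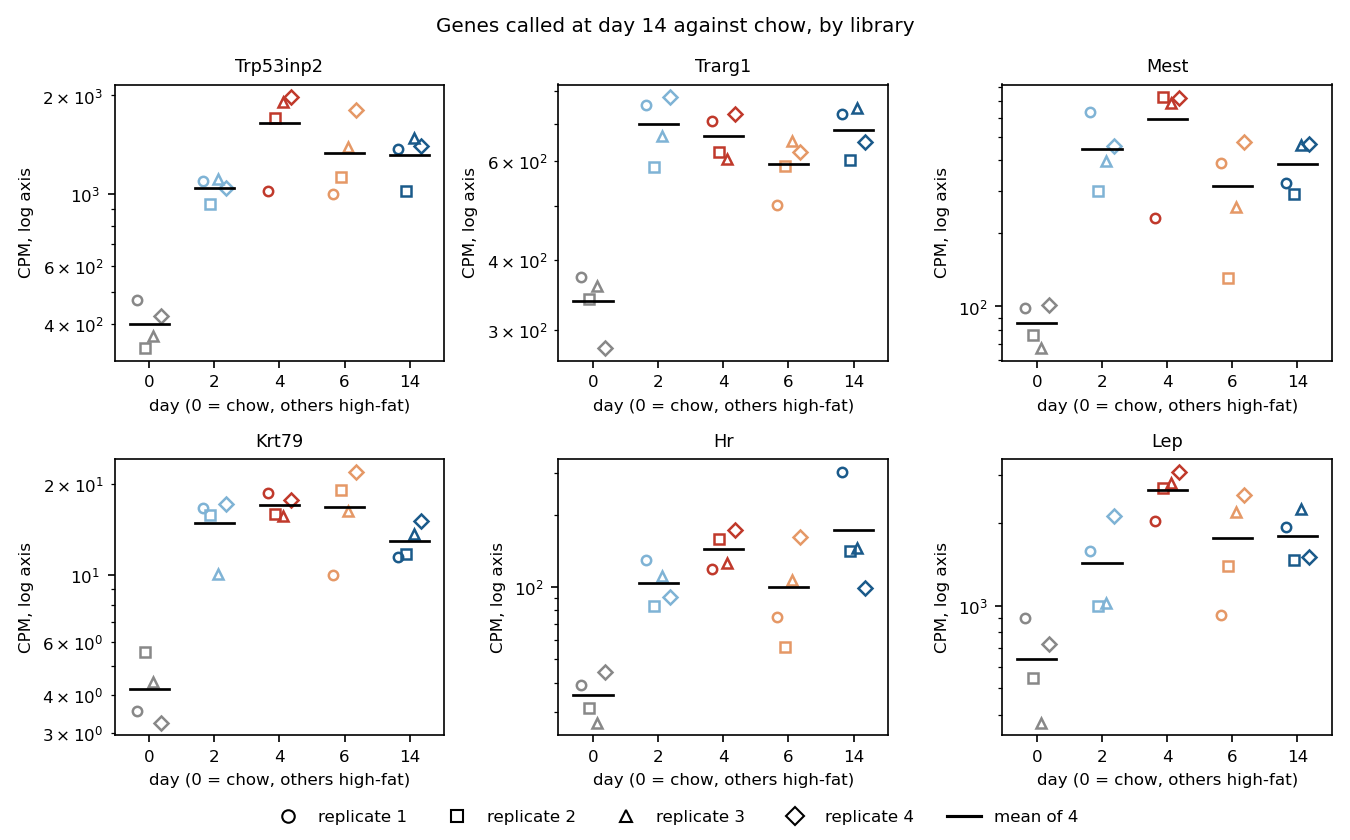
CPM on a log axis (y) of 6 genes called on day 14 against chow, in each library by day (x), with a symbol for each replicate number and a black line at the mean of 4. All 4 day 4 libraries and all 4 day 14 libraries of each gene lie above the 4 chow libraries.

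Of genes still below chow on day 14, Slc2a5, the fructose transporter GLUT5, had 274 reads over the 4 chow libraries and 1 over the 4 day 14 libraries. The chow to day 14 ratio of its level was 161, with a 95% counting interval of 28.6 to 6367. That interval covers counting noise in the pooled reads and not the spread between libraries. The ratio includes chow replicate 4, the highest chow library, and was not computed without it. In CPM Slc2a5 read 4.42, 2.09, 0.506 and 4.99 on chow, 0.445, 0, 0 and 0.392 on day 4 and 0.0385, 0, 0 and 0 on day 14. Acot1, Lcn2, Mfsd4b1 and Rap1gap were also called lower on both days, and each lost its day 14 call without chow replicate 4. Without that library the edgeR adjusted p on day 14 was 0.132, 0.247, 0.222 and 0.202.

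**Figure D5:**
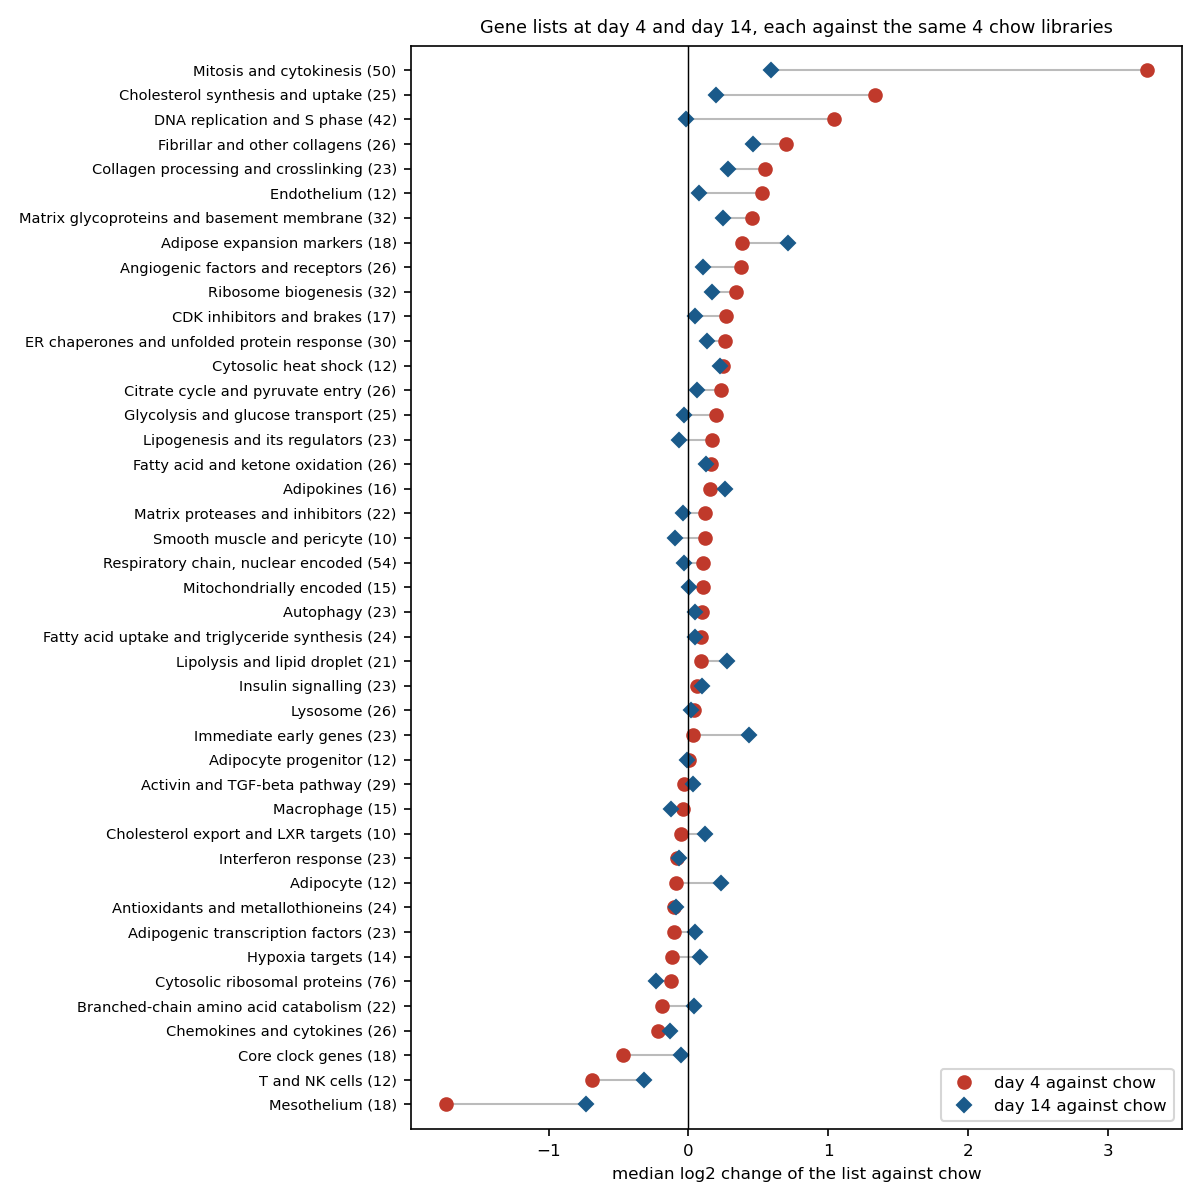
Median log2 change against chow (x axis) of each gene list with at least 10 tested genes (y axis, number tested in brackets) on day 4 (red circles) and day 14 (blue diamonds), both against the same 4 chow libraries. Mitosis went from 3.28 to 0.59, cholesterol synthesis from 1.34 to 0.19 and mesothelium from -1.73 to -0.73. Adipose expansion markers went from 0.38 to 0.71, though 9 of the 18 were lower on day 14 than on day 4.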

How the data were processed

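RNA from epididymal fat was isolated with an RNeasy Mini kit and sequenced after TruSeq RNA library preparation, per the labels' protocols. The authors deposited whole-number counts per Ensembl gene for 20 libraries. CASAVA, STAR, featureCounts, limma and R 3.0 are named, without role, in the submitters' processing notes. The genome build, annotation and strand setting are not given in the sources used here, so reads of overlapping or antisense genes may be mixed.

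Of 39179 genes, 37607 had a symbol (the rest held 0.139% of counts), and 15254 passed edgeR's filterByExpr (minimum count 10, total 15). These held at least 99.5% of every library's counts. All 20 libraries were fitted together by day with edgeR 4.0.16 in R 4.3.3 (TMM scaling, robust quasi-likelihood test, 15 residual degrees of freedom). P-values were adjusted over all genes by the Benjamini-Hochberg method. Alternatives used other scalings and filters, DESeq2 1.42.0, limma-voom 3.58.1, 8 libraries, a replicate block, stricter thresholds and each library left out. The fit was tested on simulated data.

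Genes were named if they were among the 12 largest called rises or falls without overlap (mean of at least 1 CPM), among up to 4 called members of each list with the smallest adjusted p (2 most abundant where none was called), on a fixed panel, or among the 8 largest rises or falls called against chow on both day 4 and day 14. The members and lists were chosen with earlier results of these data known. Some genes that met the rule are not reported here.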

Additional observations from a re-analysis of the deposited data

Results flagged for a closer look

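A library far from the other 3 of its group was found in 15 of 166 groups of 4. Chance would give about 1 in 20 for independent, normally spread groups. These groups share libraries and some genes, so the 15 of 166 cannot be read against that rate. Of the 15, 8 were day 4 replicate 1. Its mean log2 level above chow was 0.655 for mitosis (others 3.325 to 3.581), 0.127 for branched-chain amino acid catabolism, 0.113 for adipogenic transcription factors, -0.147 for antioxidants and metallothioneins and -0.575 for smooth muscle. In the same library Chrdl1 read 82.3 CPM (others 26.5 to 32.8), Nnat 550.6 and Mest 230.7 CPM. Heat shock genes averaged 0.028 in day 4 replicate 2, against 0.259 to 0.267 in the others.

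On day 14, replicate 4 stood apart for insulin signalling at 0.236 (others 0.007 to 0.013) and for the interferon response at -0.35. Replicate 1 stood apart for B cell markers at 1.609 (others -0.822 to -0.468), and it alone had Slc2a5, at 0.0385 CPM, which is 1 read. Hephl1 read 5.59 CPM in replicate 3, and Neil3 0.626 CPM in replicate 2.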

How the results depend on the processing

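The 1428 genes called between day 14 and day 4 became 441 without a filter, 461 with limma-voom, 532 with an absolute log2 change above 1 and 0 at an adjusted p under 0.01. Leaving out 1 library gave 0 to 2641 genes. Day 4 against chow gave 2635 at an adjusted p under 0.01, 1735 above a log2 change of 1 and 3213 to 5721 with 1 library left out, the lowest without day 4 replicate 4. Day 14 against chow gave 96 without a filter, 659 with DESeq2, 79 with only the groups compared, 37 at an adjusted p under 0.01 and 64 above a log2 change of 1. It gave 45 to 482 with 1 library left out: 482, 112, 99 and 55 without chow replicates 1 to 4, and 76 and 45 without day 14 replicates 2 and 3. Without the 3 libraries that stand apart (day 4 replicate 1, chow replicate 4 and day 2 replicate 1), chosen after seeing the data, the counts were 2583 for day 14 against day 4 and 53 for day 14 against chow. The cause of these differences was not tested.

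The main fit did not pair samples by replicate number. Deviations of day 4 and day 14 libraries with the same number correlated at -0.185 to 0.122 (4 pairs), and those with other numbers at -0.289 to 0.25. Over all groups the ranges were -0.185 to 0.516 (40 pairs) and -0.692 to 0.376 (120 pairs). These ranges overlap and do not settle whether libraries with the same number belong together. With the number as a replicate block, 1597 genes were called between day 14 and day 4, 5495 between day 4 and chow and 235 between day 14 and chow. Without the block the counts were 1428, 5381 and 180. Of 187 genes of the naming rule, 179 kept their side of the threshold between day 14 and day 4 with DESeq2, whereas 66 lost the call with limma-voom and 74 without a filter.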
